A study of Mus musculus with 10 samples.

Results

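The genes described here encode the machinery that brings secretory and membrane proteins into the endoplasmic reticulum (ER), folds them there and exports them in vesicles. They were taken by a rule on symbols, which uses no expression value but was chosen with earlier results of these data known. The rule takes symbols that begin with Sec11, Sec13, Sec16, Sec22, Sec23, Sec24, Sec31, Sec61, Sec62, Sec63, Ssr, Spcs, Pdia, Tmed or Kdelr, or with Srp followed by a digit, and the genes Hspa5, Hsp90b1, Calr, Canx and Sar1a. This gave 51 of the 12393 genes on the array, each read from its probe set with the highest mean signal. RNA came from 5 cell populations of the mouse paw pad, where the eccrine sweat glands of the mouse lie, purified by fluorescence-activated cell sorting. All animals were wild-type CD1 females, and no group carried a transgene or had been treated. The populations were the luminal cells and the myoepithelial cells of the gland, the suprabasal and the basal cells of the straight duct, and the palmoplantar epidermis, with 2 arrays each that the labels call biological replicates. The age of the mice, the sorting markers and the number of animals behind an array are not given in the labels, so the spread behind each p-value is that between arrays and may be partly technical.

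A protein bound for secretion is recognised as it leaves the ribosome by the signal recognition particle, which takes it to the Sec61 channel in the ER membrane. The signal peptidase complex removes its signal peptide, chaperones and disulfide isomerases fold it, and the COPII coat buds it off towards the Golgi with help from p24 cargo receptors. KDEL receptors return escaped ER residents. Luminal cells of the sweat gland make the primary fluid and glycoproteins, myoepithelial cells contract and lay down basement membrane, duct cells reabsorb salt, and the epidermis builds a keratinised barrier.

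Summed signals of the luminal, myoepithelial and epidermal marker lists were highest on the arrays labelled so, but single markers did not all follow. Of the luminal list, Krt7 and Foxa1 were highest on duct suprabasal array 1. Slc12a2 had signals of 23971 and 37866 on luminal and 23444 and 38537 on myoepithelial arrays. The highest summed signal of 8 luminal markers such as Aqp5 and Krt8 was on the luminal arrays (87285 and 115978) and the lowest was on the epidermis arrays (5457 and 6411). Myh11, a smooth muscle myosin that marks myoepithelial cells, had signals of 18782 and 19074 on the myoepithelial arrays and at most 131.7 elsewhere, and Krt10 of differentiated epidermis reached 40254 and 41860 on the epidermis arrays. In the myoepithelial list, Krt5 had signals of 10007 and 12727 on myoepithelial and 24116 and 26013 on duct basal arrays. Krt14 was also higher on the duct basal arrays, and Oxtr was at most 15.3 on any array. The summed signal of 8 basal keratinocyte markers was highest on the duct basal arrays (88076 and 89830). No list of markers particular to duct cells was used, and luminal markers did not set duct suprabasal cells apart: 0 of 8 passed in limma between luminal and duct suprabasal cells (2 at an unadjusted p under 0.05), and Best2 had signals of 1726 and 2435 on luminal and 5147 and 3076 on duct suprabasal arrays. Other markers stood out on some arrays. The duct suprabasal arrays had a summed signal of 7 fibroblast markers of 16704 and 87379 and of 8 endothelial markers of 4149 and 22040.0, both higher on array 2. The fibroblast sum was also high on the myoepithelial arrays (32715 and 44326, mostly Dcn and Postn) and the duct basal arrays (27246 and 21669). On the myoepithelial arrays the median of the luminal markers was 3060 on array 1 and 350 on array 2. The duct suprabasal arrays also differed most from each other in the genes of interest: 8 of 47 changed over 2-fold between the 2 arrays (Kdelr3, Pdia3, Pdia5, Sec11c, Sec24b, Sec24d, Sec61a2 and Tmed3), against 0 on the luminal arrays, 1 on the myoepithelial, 2 on the duct basal and 0 on the epidermis arrays. Among all genes tested this share was 20.1% in duct suprabasal cells. In such bulk samples, fewer cells of a type and less RNA per cell cannot be told apart.

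Taken as a set, the ER entry and export genes were bright and varied less among the populations than other genes did. Signal is the array's MAS5 brightness on a linear scale, and differences are of log2(signal + 12) unless said otherwise. The 47 genes that passed the filter on low signals had a median signal of 1468, against 358 for the 9320 genes tested in all. The 4 that did not pass were Sec16b, Tmed6, Tmed8 and Tmed11, whose highest signal on any array was 62.3. The population means of a member spanned a median of 1.01 on the log2 scale, against 1.47 for all genes tested. Only Sec24d (3.46), Tmed4 (2.45), Kdelr3 (2.40) and Ssr4 (2.01) spanned more than 2. A limma F test over the 5 populations called 25 of the 47 members at an adjusted p of 0.05, or 53.2%, against 65.7% of all genes tested. The members' share thus lay below the background, a difference that was not tested. In the top tercile of brightness, 18 of 37 members were called, against 75.7% of all genes of that brightness. The call rests on few arrays: without epidermis array 2 it gave 14 members, and without either luminal array 16. In the heat map of members by array, most rows stay pale across all columns and a few rows carry the strong colours.

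**Figure D1:**
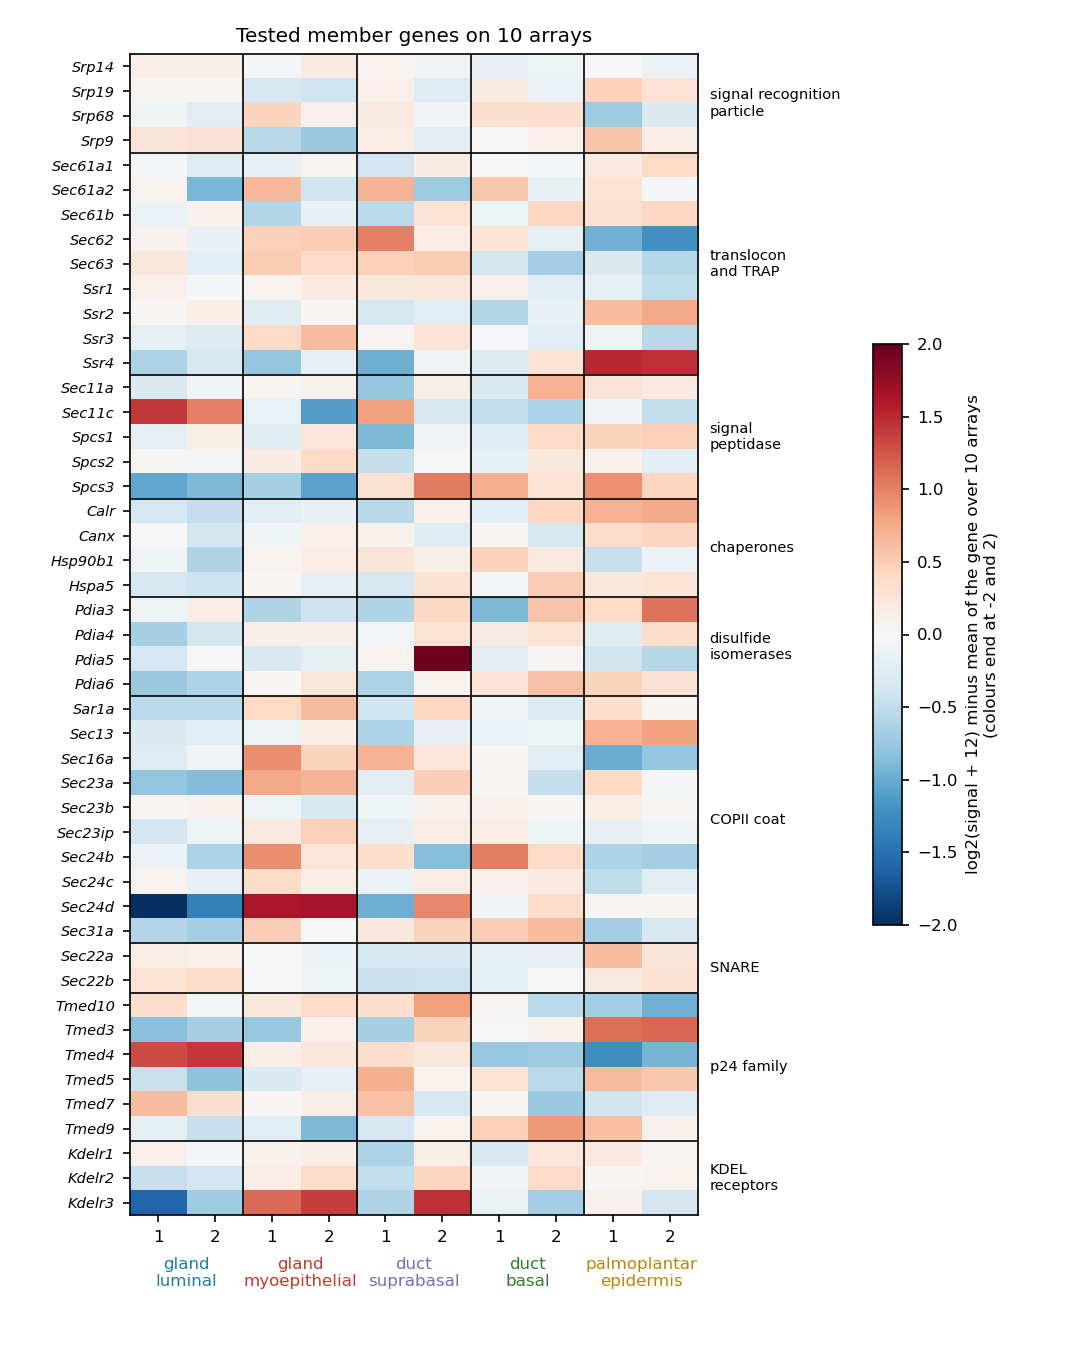
Heat map of the 47 tested genes (rows, grouped by role) on 10 arrays (columns, arrays 1 and 2 of each population). Colour is log2(signal + 12) minus the gene's mean over the 10 arrays. Sec24d and Kdelr3 are low in luminal and high in myoepithelial cells, Tmed4 and Sec11c are high in luminal cells, and Ssr4 and Tmed3 are high in epidermis.

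The luminal cells, which secrete, were not where these genes were highest. Of the 47 tested genes, 5 had their highest population mean in luminal cells, 10 in myoepithelial, 5 in duct suprabasal, 8 in duct basal cells and 19 in epidermis. For epidermis this was 40.4% of the members, against 22.5% of all genes tested. The lowest mean lay in luminal cells for 18 members, or 38.3%, against 22.2% of all genes. These shares were not matched for brightness, and 37 of the 47 members lay in the top tercile. Arrays were scaled to the same trimmed mean, and their median signals were 65.1 and 66.8 in epidermis, against 91.9 to 119.2 elsewhere. The part of brightness, scaling and choice of probe set in these shares was not tested.

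Of the 4 tested subunits of the signal recognition particle, which acts first in the pathway, Srp9 and Srp68 passed the F test. Srp9, which with Srp14 forms the part that pauses translation, had signals of 5340.4 and 5549.5 in luminal cells, 3059 and 2661 in myoepithelial cells, 4971 and 3810.0 in duct suprabasal cells, 4436 and 4828 in duct basal cells and 6669.9 and 4963 in epidermis. It was lowest on both myoepithelial arrays, which did not overlap any other array. Luminal cells were higher than myoepithelial cells (0.93 ± 0.21 SE, adjusted p = 0.00883). Its second, dimmer probe set had the same sign in that comparison (0.41), but myoepithelial cells were not lowest on it. Its myoepithelial signals of 947 and 958 were above those of duct suprabasal (848 and 789) and duct basal cells (700.5 and 621). Against epidermis it gave 0.37 for myoepithelial cells, where the chosen probe set gave -1.01. Srp14, the partner of Srp9 in that domain, had the smallest range of all 47 members (0.26 on the log2 scale), with signals of 9793 and 9719 in luminal cells, 8776 and 10139 in myoepithelial cells, 9373 and 8546 in duct suprabasal cells, 7984 and 8369.5 in duct basal cells and 9028 and 8170.5 in epidermis. Srp68, which binds the RNA of the particle, had signals of 695.5 and 632 in luminal cells, 1015 and 799.5 in myoepithelial cells, 845 and 708 in duct suprabasal cells, 929 and 943 in duct basal cells and 447 and 605 in epidermis. Its epidermis arrays were below all others, and it was higher in duct basal cells than in epidermis (0.83 ± 0.22 SE, adjusted p = 0.0165). Srp19, an assembly subunit, spanned 1781 to 3242 over the arrays and was lower in myoepithelial cells than in epidermis (-0.74, adjusted p = 0.00907).

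Of the 9 translocon genes, Sec62, Sec63, Ssr2, Ssr3 and Ssr4 passed the F test, and the 3 tested subunits of the channel itself did not. Sec61a1, the pore-forming subunit, had signals of 2276 and 1995 in luminal cells, 2128 and 2452 in myoepithelial cells, 1805.5 and 2646 in duct suprabasal cells, 2359.6 and 2304 in duct basal cells and 2698 and 3106 in epidermis. Its epidermis arrays were the highest by a narrow margin, the other 8 overlapped, and it did not pass in any pair. Sec61b is a small subunit and Sec61a2 the second form of the pore subunit. Sec62, a channel partner that also marks surplus ER for breakdown, had signals of 1869 and 1589 in luminal cells, 2453 and 2477 in myoepithelial cells, 3568 and 1952 in duct suprabasal cells, 2132 and 1548 in duct basal cells and 903 and 753 in epidermis. Both epidermis arrays were below all 8 others. Luminal cells were higher than epidermis (1.05 ± 0.28 SE, adjusted p = 0.014), and all 4 probe sets of the gene had this direction. Sec63, the J-domain partner that recruits Hspa5 to the channel, was higher in duct suprabasal than in duct basal cells (1.02 ± 0.23 SE, adjusted p = 0.0204) and in myoepithelial than in duct basal cells (0.96 ± 0.23 SE, adjusted p = 0.0163). Its probe sets disagree: against epidermis, the chosen one was 0.87 higher in myoepithelial cells, and the 3 others gave -0.43, -1.34 and -0.15.

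Of the 4 subunits of the translocon-associated protein complex (TRAP), which assists insertion of some signal peptides, Ssr4 varied most. Its signals were 3068 and 3778 in luminal cells, 2763 and 4146 in myoepithelial cells, 2406 and 4502 in duct suprabasal cells, 3913 and 5771 in duct basal cells and 13516 and 13008.5 in epidermis. The epidermis arrays stood far above the rest, and the other 8 arrays formed 1 continuous range. Luminal cells were lower than epidermis (-1.96 ± 0.33 SE, adjusted p = 0.00108), a difference that passed under all 20 alternative settings and left-out arrays. Ssr2 went the same way at a smaller size (-0.61 ± 0.20 SE, adjusted p = 0.0334), while Ssr3 was lower in luminal than in myoepithelial cells (-0.74 ± 0.20 SE, adjusted p = 0.0226). Ssr1 failed the F test, and its signals ran between 1782 and 3001. The 2 dimmer Ssr4 probe sets had the same sign against luminal cells with smaller differences (-0.55 and -0.26).

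The catalytic subunit of signal peptidase exists as Sec11a and Sec11c. Sec11c had signals of 7264 and 5519 in luminal cells, 2489.5 and 1273 in myoepithelial cells, 4789 and 2218 in duct suprabasal cells, 1936 and 1780.5 in duct basal cells and 2559 and 1929.7 in epidermis. Both luminal arrays were above all others, and the nearest was duct suprabasal array 1. Luminal cells were higher than myoepithelial cells (1.82 ± 0.40 SE, adjusted p = 0.00795), duct basal cells (1.76 ± 0.40 SE, adjusted p = 0.00787) and epidermis (1.51 ± 0.40 SE, adjusted p = 0.0122). The difference from duct suprabasal cells (0.955) did not pass. Sec11a did not pass the F test, with luminal signals of 1755 and 2014 and signals between 1252 and 3486 elsewhere. The difference between the paralogs was not tested. Spcs3, an accessory subunit, had signals of 231 and 256 in luminal cells, 303 and 225 in myoepithelial cells, 603 and 1012 in duct suprabasal cells, 819.5 and 592 in duct basal cells and 925 and 663 in epidermis. It was low on the 4 arrays of the gland and high on the 6 others, with no overlap. Luminal cells were lower than epidermis (-1.64 ± 0.31 SE, adjusted p = 0.00201) and duct suprabasal cells (-1.64 ± 0.31 SE, adjusted p = 0.00964), and myoepithelial cells were lower than duct basal cells (-1.37 ± 0.31 SE, adjusted p = 0.0115). Spcs1 and Spcs2 did not pass the F test. Spcs2 had signals of 2215 and 2057 in luminal cells, 2404.5 and 2828 in myoepithelial cells, 1534 and 2143 in duct suprabasal cells, 1893 and 2500.2 in duct basal cells and 2284.5 and 1829 in epidermis.

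Of the 4 chaperones of the ER lumen and membrane, Calr alone passed the F test. Hspa5 (BiP), the main Hsp70 of the ER and the classic readout of ER stress, had signals of 4326 and 4133 in luminal cells, 5587 and 4900.0 in myoepithelial cells, 4313 and 6789 in duct suprabasal cells, 5414 and 7764 in duct basal cells and 6488 and 6667 in epidermis. The luminal arrays were the lowest but for duct suprabasal array 1, which lay between them, and the differences did not pass (-0.31 ± 0.25 SE, adjusted p = 0.393 against myoepithelial cells and -0.64 ± 0.25 SE, adjusted p = 0.0639 against epidermis). Calr, a lectin chaperone that also stores calcium, had signals of 3845 and 3544 in luminal cells, 4232 and 4430.0 in myoepithelial cells, 3340.0 and 5274 in duct suprabasal cells, 4232 and 6583 in duct basal cells and 7988 and 8241 in epidermis. Its epidermis arrays were above all others. Luminal cells were lower than epidermis (-1.13 ± 0.26 SE, adjusted p = 0.00635), under all 20 alternatives. Canx, its membrane-bound relative, had signals of 4128.5 and 3181 in luminal cells, 3901 and 4446 in myoepithelial cells, 4368 and 3485 in duct suprabasal cells, 4193 and 3299.8 in duct basal cells and 5300.1 and 5578 in epidermis, and its epidermis arrays were likewise the highest. The luminal difference from epidermis was small (-0.58 ± 0.21 SE, adjusted p = 0.0461). Hsp90b1 (GRP94), which folds integrins and Toll-like receptors among others, had signals of 2829.8 and 1978 in luminal cells, 3146 and 3313 in myoepithelial cells, 3582 and 3276.5 in duct suprabasal cells, 4149.9 and 3440.4 in duct basal cells and 2166 and 2750.0 in epidermis. It was lower in luminal than in duct basal cells (-0.67 ± 0.22 SE, adjusted p = 0.0386), with a difference of only -0.04 from epidermis. The dimmer Hsp90b1 probe set gave -0.06 against duct basal cells.

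Among the disulfide isomerases Pdia6 passed the F test and Pdia3, Pdia4 and Pdia5 did not. Pdia6, a partner of Hspa5, had signals of 694 and 761 in luminal cells, 1211 and 1392 in myoepithelial cells, 751 and 1238 in duct suprabasal cells, 1436 and 1770.0 in duct basal cells and 1594 and 1456 in epidermis. The luminal arrays and duct suprabasal array 1 were low and all others high. Pdia6 was lower in luminal cells than in myoepithelial cells (-0.83 ± 0.24 SE, adjusted p = 0.0302), duct basal cells (-1.12 ± 0.24 SE, adjusted p = 0.00696) and epidermis (-1.05 ± 0.24 SE, adjusted p = 0.00653). A second Pdia6 probe set, with a mean signal of 45.4, had the opposite sign in all of these. Pdia4 had signals of 364 and 448 in luminal cells, 645 and 638 in myoepithelial cells, 560.5 and 719.6 in duct suprabasal cells, 654 and 714 in duct basal cells and 490.1 and 751 in epidermis. Its luminal arrays were the lowest, yet only the difference from duct basal cells passed (-0.74 ± 0.25 SE, adjusted p = 0.0423). Pdia5 reached 369 on the second of the duct suprabasal arrays and was at most 92.1 elsewhere.

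Promoters are shown for members that share a motif, since the chaperones are the textbook targets of the unfolded protein response. RefSeq promoters (GRCm38.p6, 250 bases before to 50 after the annotated start) were matched for 42 of the 51 genes. The ER stress response element, CCAAT and CCACG with 9 bases of any kind between them, was searched on both strands. It was defined on promoters of ER chaperone genes, so its presence here repeats that. It lay in 5 of the 42 genes (Calr, Canx, Hsp90b1, Hspa5 and Pdia6), or 11.9%, and in 0.137% of the 27025 genes with a promoter. A related element, ATTGG and CCACG with 1 base between them, was in 0 of the 42. Hspa5 (chr2:34771840-34772139, plus strand), Calr (chr8:84846882-84847181, minus strand) and Pdia6 (chr12:17266339-17266638, plus strand) are given 5′ to 3′ with the element in capitals, reversed and complemented in Calr.
Hspa5: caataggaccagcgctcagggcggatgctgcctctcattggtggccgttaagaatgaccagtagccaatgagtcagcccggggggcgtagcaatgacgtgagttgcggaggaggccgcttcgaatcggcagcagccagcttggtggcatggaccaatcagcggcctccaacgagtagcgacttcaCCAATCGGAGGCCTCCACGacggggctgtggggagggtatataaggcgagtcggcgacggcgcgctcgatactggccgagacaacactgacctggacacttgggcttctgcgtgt
Calr: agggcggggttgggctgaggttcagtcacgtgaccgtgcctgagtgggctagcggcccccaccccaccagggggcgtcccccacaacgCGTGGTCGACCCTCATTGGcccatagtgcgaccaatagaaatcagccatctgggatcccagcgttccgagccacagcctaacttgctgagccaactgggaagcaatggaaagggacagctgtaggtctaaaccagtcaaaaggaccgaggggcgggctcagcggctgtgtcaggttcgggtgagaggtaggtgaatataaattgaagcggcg
Pdia6: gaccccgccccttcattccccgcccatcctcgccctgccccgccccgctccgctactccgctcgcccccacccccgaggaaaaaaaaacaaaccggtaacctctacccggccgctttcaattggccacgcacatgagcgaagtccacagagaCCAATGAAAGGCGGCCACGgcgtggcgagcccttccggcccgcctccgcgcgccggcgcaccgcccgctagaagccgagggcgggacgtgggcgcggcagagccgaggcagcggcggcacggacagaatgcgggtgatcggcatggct
The element begins 65 bases before the start in Hspa5, 162 in Calr and 98 in Pdia6. In these 3 genes luminal cells differed from myoepithelial cells by -0.31 for Hspa5, -0.23 for Calr and -0.83 for Pdia6, of which the last passed.

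The COPII coat held the member with the widest range of all, and 6 of its 10 tested genes passed the F test. Sec24d, one of the cargo-binding subunits, had signals of 49.4 and 106 in luminal cells, 924 and 926 in myoepithelial cells, 140.2 and 574 in duct suprabasal cells, 273 and 376 in duct basal cells and 298 and 297 in epidermis. The luminal arrays were the lowest of all 10 and the myoepithelial arrays the highest, with no overlap. On the log2(signal + 12) scale luminal cells were 11.0-fold lower than myoepithelial cells (-3.46 ± 0.55 SE, adjusted p = 0.00195), under all 20 alternatives. They were also lower than epidermis (-1.86 ± 0.55 SE, adjusted p = 0.0208) and duct basal cells (-1.97 ± 0.55 SE, adjusted p = 0.0213). Its paralogs Sec24b and Sec24c did not pass the F test. Sec23a, which stimulates GTP hydrolysis by Sar1 and pairs with Sec24, had signals of 304 and 289.5 in luminal cells, 914 and 870.1 in myoepithelial cells, 456 and 759 in duct suprabasal cells, 559.5 and 383 in duct basal cells and 714.5 and 523 in epidermis. Luminal arrays were again lowest and myoepithelial arrays highest, without overlap. The luminal to myoepithelial difference passed under all 20 alternatives (-1.55 ± 0.29 SE, adjusted p = 0.00414), and luminal cells were lower than epidermis too (-1.01 ± 0.29 SE, adjusted p = 0.0179). Its paralog Sec23b was flat, with signals of 1133 and 1148 in luminal cells, 1006 and 871.5 in myoepithelial cells, 1024 and 1148 in duct suprabasal cells, 1153 and 1107 in duct basal cells and 1187 and 1107 in epidermis and a range of 0.29. Whether the paralogs differ in their response was not tested.

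Sar1a, the GTPase that starts coat assembly, had signals of 1075.5 and 1082 in luminal cells, 2074 and 2441 in myoepithelial cells, 1189.7 and 2099 in duct suprabasal cells, 1507 and 1299 in duct basal cells and 1991 and 1633 in epidermis. Its luminal arrays were the lowest, with duct suprabasal array 1 next. Luminal cells were lower than myoepithelial cells (-1.05 ± 0.26 SE, adjusted p = 0.0145), but a second probe set at a mean signal of 856 gave 0.27. Its brighter paralog Sar1b, outside the genes taken by the rule, was not called there. Sar1b had signals of 4083.5 and 3786 in luminal and 3249 and 3979 in myoepithelial cells. Sec31a of the outer coat had signals of 227 and 214 in luminal cells, 492 and 350.5 in myoepithelial cells, 408 and 476 in duct suprabasal cells, 493 and 545 in duct basal cells and 211 and 273 in epidermis. It was low in luminal cells and epidermis and higher on all arrays between, and luminal cells were lower than myoepithelial (-0.88 ± 0.24 SE, adjusted p = 0.0218), duct suprabasal (-0.96 ± 0.24 SE, adjusted p = 0.0286) and duct basal cells (-1.19 ± 0.24 SE, adjusted p = 0.0048). Sec16a, the scaffold of ER exit sites, had signals of 503 and 573 in luminal cells, 1154 and 822 in myoepithelial cells, 971 and 714 in duct suprabasal cells, 613 and 519.8 in duct basal cells and 298 and 347 in epidermis. Epidermis was lowest and myoepithelial cells were high. Luminal cells were lower than myoepithelial cells (-0.85 ± 0.24 SE, adjusted p = 0.0262) and higher than epidermis (0.72 ± 0.24 SE, adjusted p = 0.0363). Sec13, partner of Sec31a and also a nuclear pore subunit, was 2.0-fold lower in luminal cells than in epidermis (adjusted p = 0.00261), with luminal signals of 1199 and 1260.0 and epidermis signals of 2375 and 2570.0. Sec23ip, a Sec23 partner, did not pass the F test. Both Sec22 genes passed it with small ranges (0.74 and 0.77). Sec22b, a SNARE for fusion between ER and Golgi, had signals of 1151.5 and 1226 in luminal cells, 946 and 881.5 in myoepithelial cells, 702 and 709.6 in duct suprabasal cells, 837 and 939.9 in duct basal cells and 1080.4 and 1174 in epidermis. Luminal arrays were above the duct suprabasal ones (0.74 ± 0.17 SE, adjusted p = 0.0192), where a second probe set gave 0.03. Sec22a, its relative, had signals of 485 and 468 in luminal cells, 437 and 399.9 in myoepithelial cells, 340.3 and 347 in duct suprabasal cells, 379.7 and 388 in duct basal cells and 681 and 521 in epidermis, and duct basal cells were lower than epidermis (-0.62 ± 0.20 SE, adjusted p = 0.0407).

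**Figure D2:**
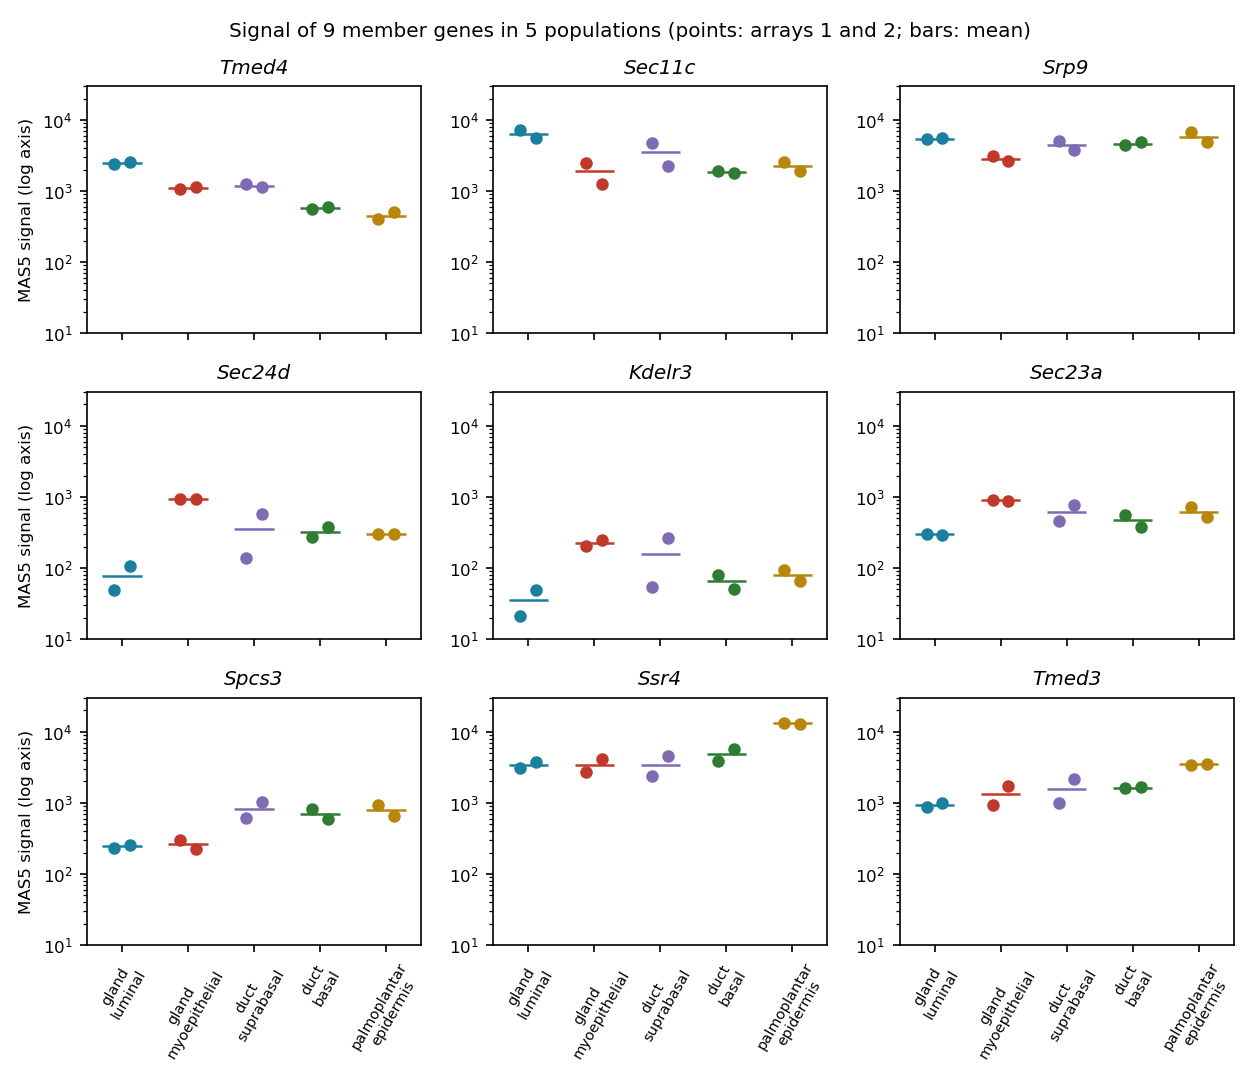
MAS5 signal (log axis) of 9 genes in the 5 populations. Points are arrays 1 and 2, and bars are their mean. By their means, Tmed4 and Sec11c are highest in luminal cells, Sec24d, Kdelr3 and Sec23a are lowest there and highest in myoepithelial cells, Spcs3 is low in both gland populations, and Ssr4 and Tmed3 are highest in epidermis. Kdelr3 on duct suprabasal array 2 is above both myoepithelial arrays.

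Of the KDEL receptors, which send ER residents back, only Kdelr3 passed the F test. Kdelr3 had signals of 21.0 and 49.0 in luminal cells, 206.5 and 246 in myoepithelial cells, 53.9 and 263 in duct suprabasal cells, 79.0 and 50.4 in duct basal cells and 93.9 and 65.1 in epidermis. Its luminal arrays were the lowest and below the myoepithelial arrays, while the duct suprabasal arrays were far apart. Luminal array 1 lay under its array's 40th percentile of 43.0. Luminal cells were lower than myoepithelial cells (-2.40 ± 0.61 SE, adjusted p = 0.0164), but not past the threshold without luminal array 1 (-1.96, adjusted p = 0.109), myoepithelial array 1 (-2.52, 0.0546) or myoepithelial array 2 (-2.28, 0.0914). Kdelr1 had signals of 2546 and 2338 in luminal cells, 2529 and 2610.1 in myoepithelial cells, 1549.9 and 2579 in duct suprabasal cells, 1917.5 and 2813.5 in duct basal cells and 2734 and 2476.5 in epidermis, and its range of 0.38 was the smallest of the 3. Kdelr2 ran between 2144 and 4058 and did not pass the F test.

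Sec24d, Sec23a and Kdelr3 gave the 3 most negative luminal minus myoepithelial differences of the 47, and their promoters share a short motif. TGACGTGG, the core of the element bound by factors of the unfolded protein response, was searched on both strands. It lay in 4 of the 42 matched genes (these 3 and the untested Sec16b), or 9.52%, against 0.714% of all genes with a promoter. Sec24d (chr3:123267246-123267545, plus strand), Sec23a (chr12:59011968-59012267, minus strand) and Kdelr3 (chr15:79516158-79516457, plus strand) are given 5′ to 3′, with the motif in capitals and reversed and complemented in Kdelr3.
Sec24d: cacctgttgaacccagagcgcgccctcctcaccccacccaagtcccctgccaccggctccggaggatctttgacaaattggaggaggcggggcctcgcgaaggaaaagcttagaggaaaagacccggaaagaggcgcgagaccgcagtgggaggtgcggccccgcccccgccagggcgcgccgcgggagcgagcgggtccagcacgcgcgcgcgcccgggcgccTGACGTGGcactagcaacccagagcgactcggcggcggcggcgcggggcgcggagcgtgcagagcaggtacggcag
Sec23a: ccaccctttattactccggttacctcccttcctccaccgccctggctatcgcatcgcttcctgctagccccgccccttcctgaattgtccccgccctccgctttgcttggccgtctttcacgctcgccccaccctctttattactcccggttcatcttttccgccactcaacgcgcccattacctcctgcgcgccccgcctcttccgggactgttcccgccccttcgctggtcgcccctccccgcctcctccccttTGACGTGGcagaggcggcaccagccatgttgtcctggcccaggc
Kdelr3: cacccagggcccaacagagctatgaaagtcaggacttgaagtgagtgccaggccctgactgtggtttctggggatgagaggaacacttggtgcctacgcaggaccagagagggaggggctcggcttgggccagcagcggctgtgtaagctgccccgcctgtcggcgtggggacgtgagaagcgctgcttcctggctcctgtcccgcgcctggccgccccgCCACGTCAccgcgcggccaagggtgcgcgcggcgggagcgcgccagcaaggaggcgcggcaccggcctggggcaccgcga
The motif begins 26 bases before the start in Sec24d, 30 before it in Kdelr3 and 6 after it in Sec23a. A match describes letters in the window and shows no binding. The ranking of the 3 genes comes from these same data, and several motifs were searched. Their overlap is thus a description and not a test. The ER membrane factor Creb3l2, which in mouse cartilage is known to activate Sec23a, had signals of 179 and 123.5 in luminal cells, 875 and 1013 in myoepithelial cells, 226 and 526 in duct suprabasal cells, 290.3 and 207 in duct basal cells and 45.4 and 52.9 in epidermis. Its myoepithelial arrays were above all others, and luminal cells were lower by 2.57 on the log2 scale than myoepithelial cells (SE 0.38, adjusted p = 0.00147). Against epidermis the directions parted: luminal cells were higher in Creb3l2 (1.40, adjusted p = 0.0149 in limma) but lower in Sec24d and Sec23a. Xbp1, a factor of the unfolded protein response, went the other way from Creb3l2 in the gland, 0.86 higher in luminal than in myoepithelial cells. A shared cause was not tested.

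The p24 family, cargo receptors that cycle between ER and Golgi, had its highest mean in luminal cells for Tmed4 and Tmed7, in duct suprabasal cells for Tmed10, in duct basal cells for Tmed9 and in epidermis for Tmed3 and Tmed5. Tmed4 had signals of 2388 and 2584 in luminal cells, 1053 and 1134 in myoepithelial cells, 1238 and 1124 in duct suprabasal cells, 562 and 586 in duct basal cells and 398 and 499.8 in epidermis. It was highest on the luminal arrays, lowest on the epidermis arrays and between these in the others, with no array of luminal cells overlapping any other. Luminal cells were higher than myoepithelial cells (1.18 ± 0.18 SE, adjusted p = 0.00167), duct suprabasal cells (1.07 ± 0.18 SE, adjusted p = 0.00668), duct basal cells (2.09 ± 0.18 SE, adjusted p = 6.60e-05) and epidermis (2.45 ± 0.18 SE, adjusted p = 1.19e-05). A second Tmed4 probe set had a mean signal of only 13.2, near the pseudocount of 12. It gave -0.26 for luminal against myoepithelial cells, the opposite sign. Against duct suprabasal cells, duct basal cells and epidermis it gave 1.10, 0.79 and 0.37. On the chosen probe set, the differences from myoepithelial cells and epidermis passed under all 20 alternatives, none of which used the second. Tmed3 ran the opposite way, with signals of 881 and 992 in luminal cells, 932 and 1705 in myoepithelial cells, 999.5 and 2168 in duct suprabasal cells, 1599.5 and 1687.5 in duct basal cells and 3428 and 3524 in epidermis. Epidermis was highest without overlap, and luminal cells were lower than it (-1.88 ± 0.36 SE, adjusted p = 0.00241). Tmed5 had signals of 457 and 352 in luminal cells, 506 and 554 in myoepithelial cells, 1029 and 657 in duct suprabasal cells, 766 and 425 in duct basal cells and 977 and 908 in epidermis and was also lower in luminal cells than in epidermis (-1.21 ± 0.31 SE, adjusted p = 0.0109), where a second probe set gave -0.57 (adjusted p = 0.588). Tmed10, the p24 member found in most complexes of the family, had signals of 1381.5 and 1048 in luminal cells, 1268.5 and 1417 in myoepithelial cells, 1368 and 1913 in duct suprabasal cells, 1122 and 747.5 in duct basal cells and 670.3 and 549 in epidermis. It was low in epidermis, and luminal cells were higher (0.97 ± 0.26 SE, adjusted p = 0.0137). Tmed9 had signals of 2153 and 1762 in luminal cells, 2084 and 1299 in myoepithelial cells, 1929.9 and 2564.5 in duct suprabasal cells, 3381 and 4379 in duct basal cells and 3684 and 2571 in epidermis, with myoepithelial cells lower than duct basal cells (-1.22 ± 0.29 SE, adjusted p = 0.0145). Its second probe set gave -0.56 there (adjusted p = 0.404) and 0.18 for luminal against duct basal cells, the opposite sign. Tmed7 had signals of 2194 and 1766 in luminal cells, 1430.2 and 1525 in myoepithelial cells, 2121 and 1131 in duct suprabasal cells, 1438 and 834.5 in duct basal cells and 1069 and 1172 in epidermis and did not pass the F test.

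Within the gland, luminal cells had fewer of these genes up than down relative to myoepithelial cells. Of the 47, 3 were higher (Sec11c, Tmed4 and Srp9) and 8 lower (Sec24d, Kdelr3, Sec23a, Sar1a, Sec31a, Sec16a, Pdia6 and Ssr3). That is 23.4% of the members, against 31.1% of all genes tested (14.5% higher and 16.5% lower), a share below the background. By role, 5 of 10 COPII genes were lower, and the other roles had at most 1 call each. The median difference was -0.25, against -0.08 for all genes, but 0.021, with no lower direction, when each gene was read from its probe set of largest variance (-0.04 for all genes). The 8 immune markers were all lower in luminal cells, with a summed signal of 211.0 and 809 on the luminal arrays and 4757 and 7076 on the myoepithelial arrays, and their part in the result was not tested. The summed fibroblast signal was 2302 and 6495 on the luminal and 32715 and 44326 on the myoepithelial arrays. Of 7 fibroblast markers, 2 were called lower and 1 higher in luminal cells, and their part was not tested. Of the plasma cell markers on the arrays, Jchain and Tnfrsf17 were at most 19.8 and Irf4 at most 34.1, and Prdm1 was highest on duct suprabasal array 2 (295.7). Sdc1, which epithelia also express, had signals of 848 and 1219 in luminal and 2421 and 3617 in myoepithelial cells and passed as lower in luminal cells, and its part was not tested. The count depends on single arrays: it was 4 without luminal array 1 (Sec23a, Sec24d, Srp9 and Tmed4), 5 without luminal array 2, 7 without myoepithelial array 1 and 5 without myoepithelial array 2. Sec23a, Sec24d and Tmed4 passed in each of these.

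**Figure D3:**
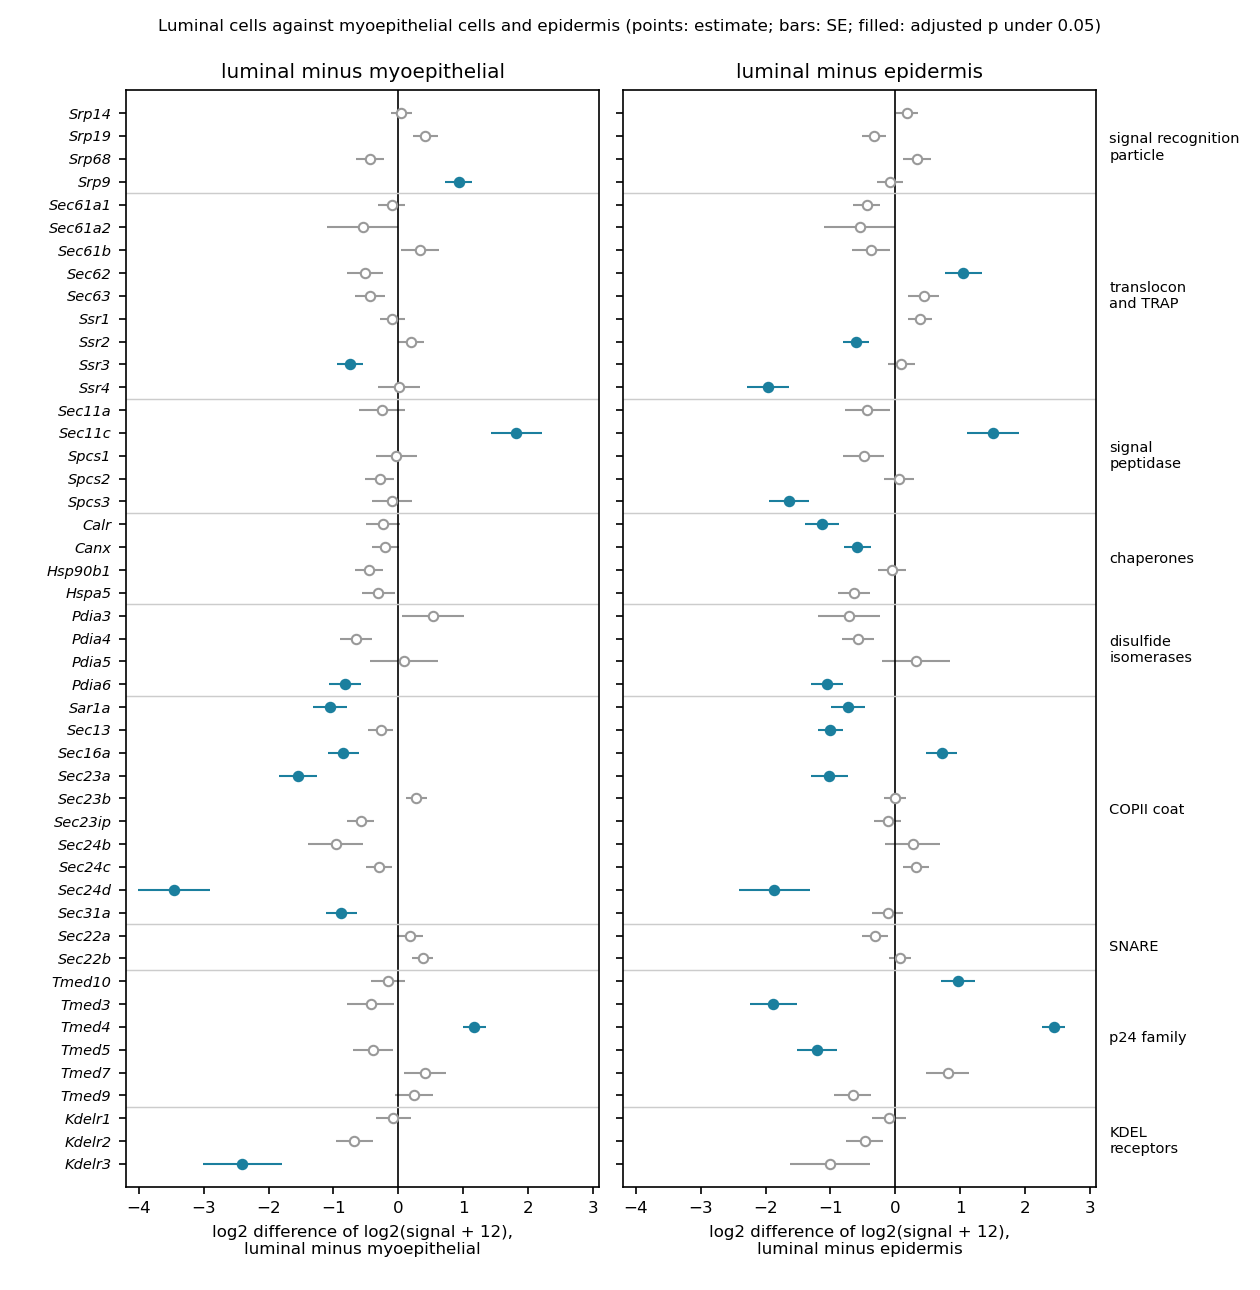
Log2 difference of log2(signal + 12) for the 47 tested genes, luminal minus myoepithelial cells (left) and luminal minus epidermis (right), by role. Points are estimates, bars are SE, and filled points passed an adjusted p of 0.05 (11 on the left, 17 on the right). Sec24d and Kdelr3 lie farthest to the left in the left panel and Tmed4 farthest to the right in the right panel.

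Luminal cells and epidermis differed in 17 of the 47 genes, or 36.2%, against 45.2% of all genes tested (26.1% higher and 19.2% lower). Luminal cells were higher in 5 (Tmed4, Sec11c, Sec62, Tmed10 and Sec16a) and lower in 12 (Ssr4, Tmed3, Sec24d, Spcs3, Tmed5, Calr, Pdia6, Sec23a, Sec13, Sar1a, Ssr2 and Canx). The lower calls were 25.5% of the members and the higher calls 10.6%, the opposite of the balance over all genes on the deposited scale. The median difference was -0.33, against 0.16 for all genes. Under quantile normalization, which moved the median of all genes by -0.217 here, the counts were 5 higher and 11 lower. The median of all genes was then -0.06 and that of the members -0.34, so the 2 no longer differed in sign. The summed fibroblast signal was 2302 and 6495 on the luminal arrays and 1087 and 1363 on the epidermis arrays, and its part was not tested. The count was 9 without luminal array 1 or epidermis array 2, both of which ended the calls of Sar1a, Sec11c, Sec16a, Sec24d, Sec62, Ssr2 and Tmed10. It was 11 without luminal array 2 or epidermis array 1, where Canx, Sar1a, Sec16a, Sec23a, Ssr2 and Tmed5 were lost in both. Tmed4, Ssr4, Tmed3, Spcs3, Sec13 and Calr passed under every alternative run.

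Against the duct, luminal cells showed few differences. With duct suprabasal cells, 4 genes passed (8.51%, against 15.2% of all genes, 4.95% higher and 10.2% lower): Tmed4 and Sec22b higher, Spcs3 and Sec31a lower. All 8 endothelial and 5 of 7 tested fibroblast markers were lower in luminal cells there, and their part was not tested. The count was 1 without either luminal array and 13 without duct suprabasal array 1. With duct basal cells, 9 passed (19.1%, against 35.4%): Tmed4 and Sec11c were higher, and Sec24d, Spcs3, Sec31a, Pdia6, Tmed9, Pdia4 and Hsp90b1 were lower. This count was 4 without luminal array 1, 5 without duct basal array 2 and 14 without either duct suprabasal array.

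Few of the genes passed between the outer layers of gland and duct or between the layers of the duct. Myoepithelial cells differed from duct basal cells in 7 genes (14.9%, against 24.3%), with Sec63, Sec23a, Tmed4 and Sec16a higher and Spcs3, Tmed9 and Srp9 lower. Srp9 had a second probe set with the opposite sign (0.52). The count was 1 without myoepithelial array 2, 2 without duct basal array 2, 3 without myoepithelial array 1 and 4 without duct basal array 1 or either luminal array. It was 11 without either duct suprabasal array and 5 (2 higher) under quantile normalization. Tmed4 passed under all alternatives. Sec63 gave -0.01 with its probe set of largest variance. In this pair 7 of 8 immune markers were higher in myoepithelial cells, with summed signals of 4757 and 7076 in myoepithelial and 437 and 349 in duct basal cells, and their part was not tested. Myoepithelial and duct suprabasal cells differed only in Spcs3 (2.13%, against 17.4% of all genes, 8.14% higher and 9.27% lower), and the limma count was 0 without myoepithelial array 2 (2 at an unadjusted p under 0.05), 3 without duct suprabasal array 1 and 10 without duct suprabasal array 2. All 8 endothelial markers were lower in myoepithelial cells there, with summed signals of 294 and 242 in myoepithelial and 4149 and 22040.0 in duct suprabasal cells, which was not tested as a part of the result. Duct suprabasal and duct basal cells differed in 2 genes, Tmed4 and Sec63 (4.26%, against 16.4% of all genes, 8.39% higher and 7.97% lower), or in 1 without duct basal array 2, 6 without duct suprabasal array 1 and 5 without duct suprabasal array 2. In that last pair the summed endothelial signal was 4149 and 22040.0 in suprabasal and 882 and 382 in basal cells, and its part was not tested. The difference between the 2 layer contrasts, luminal minus myoepithelial less duct suprabasal minus duct basal, passed in 7 genes (14.9%, against 16.0% of all genes, 5.94% higher and 10.0% lower): Srp9 was higher and Sec24d, Kdelr3, Sec23a, Sec63, Sec16a and Ssr3 were lower.

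Against epidermis, the remaining 3 populations differed in 10 to 20 members. Myoepithelial cells differed from it in 20 members (42.6%, against 51.6% of all genes, 31.6% higher and 19.9% lower), 11 of them higher, duct suprabasal cells in 16 (34.0%, against 46.0%), 8 of them higher, and duct basal cells in 10 (21.3%, against 34.0%), 5 of them higher. These comparisons share the epidermis arrays. Markers of other cells moved with them: all 8 immune markers were higher in myoepithelial cells than in epidermis (summed signals of 4757 and 7076, against 172 and 172), all 8 endothelial markers in duct suprabasal cells (4149 and 22040.0, against 59.1 and 60.1), and all 7 fibroblast markers in duct suprabasal and 6 of 7 in duct basal cells. Their part in the results was not tested. Ssr4 was lower than in epidermis in all 3 (-1.97, -2.01 and -1.48), as were Sec13, Ssr2 and Tmed3. The 2 dimmer Ssr4 probe sets gave -0.06 and 0.53 for myoepithelial, -0.04 and 0.58 for duct suprabasal and -0.53 and -0.44 for duct basal cells, so they do not share that size, nor in 2 cases the sign. Sec62 and Sec16a were higher in all 3 (1.57, 1.66 and 1.13 for Sec62). In duct basal cells Sec62 gave 0.12 with its probe set of largest variance (adjusted p = 0.865), and the Sec16a call held in 12 of 20 alternatives. With that choice of probe set, Sec63 turned to -1.34 in myoepithelial cells (adjusted p = 0.0273). Under quantile normalization, which moved the median of all genes by -0.359, -0.422 and -0.281, the higher and lower calls were 6 and 11 for myoepithelial cells, 5 and 7 for duct suprabasal cells and 2 and 4 for duct basal cells, so the split turns towards lower in all 3. The duct basal count was 2 without epidermis array 1, 3 without duct basal array 1 and 5 without epidermis array 2. The myoepithelial count was 10 without myoepithelial array 1 and 12 without either epidermis array. The duct suprabasal count was 10 without epidermis array 1 and 9 without epidermis array 2.

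**Figure D4:**
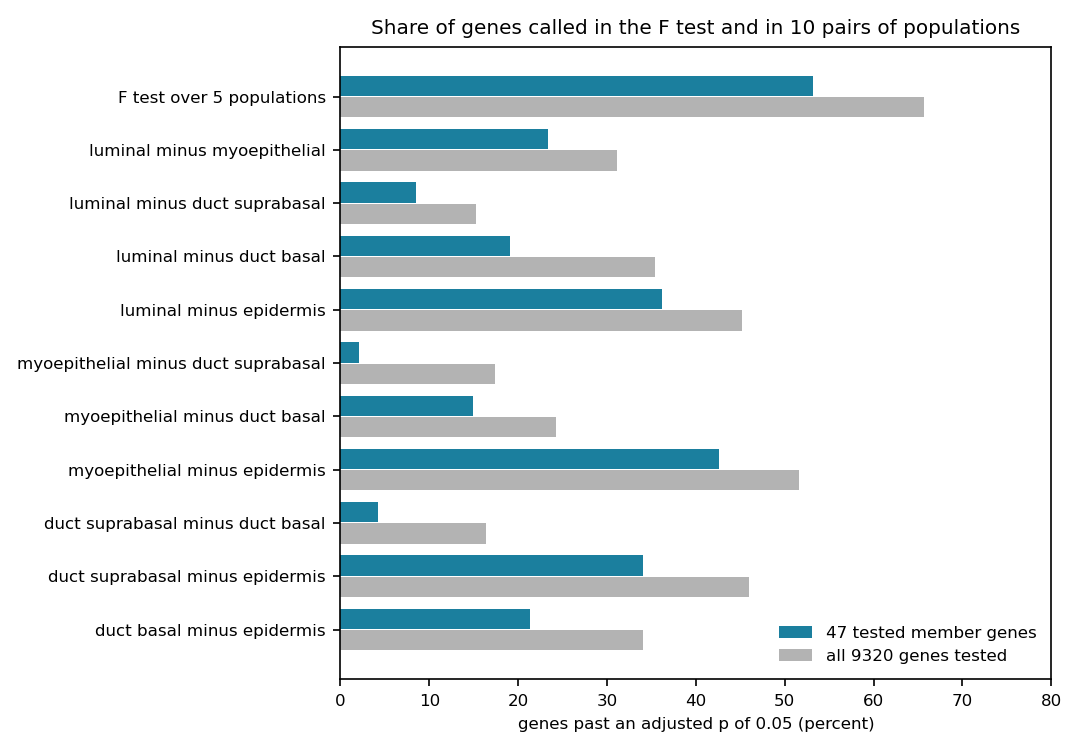
Percent of genes past an adjusted p of 0.05 in the F test and in the 10 pairs of populations, for the 47 tested members (upper bar) and all 9320 genes tested (lower bar). The members' bar is the shorter one in all 11 comparisons.

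Companion genes of the pathway, outside the 51, moved in both directions. Oligosaccharyltransferase subunits, which attach N-glycans as proteins enter, had 1 of 10 called between luminal and myoepithelial cells, or 10.0%, against 31.1% of all genes tested (Magt1, 0.79 higher in luminal cells, adjusted p = 0.0371). Against epidermis 2 of 10 were called, against 45.2% of all genes, Krtcap2 at 0.86 and Ostc at -1.75 (adjusted p = 0.0039 and 0.00135). Ostc had signals of 1000.4 and 1055 in luminal cells, 909 and 1036 in myoepithelial cells, 883 and 1921 in duct suprabasal cells, 1454 and 1503.5 in duct basal cells and 3517 and 3452 in epidermis, high in epidermis. In the unfolded protein response list, 5 of 23 were higher and 2 lower in luminal than in myoepithelial cells (30.4% called, against 31.1% of all genes, a share near the background), with a median of 0.20 against -0.08 for all genes. Derl3, which helps remove misfolded proteins, passed as higher there (adjusted p = 0.00133), with signals of 88.8 and 145.5 in luminal cells, 6.0 and 10.8 in myoepithelial cells, 112 and 84.6 in duct suprabasal cells, 51.6 and 68.1 in duct basal cells and 75.0 and 53.4 in epidermis, below the filter level and the pseudocount on the myoepithelial arrays, so no size is given. Eif2ak3 (PERK), an ER stress sensor, was 0.98 higher, and Edem1, a degradation lectin, was lower (-1.44, adjusted p = 0.00082). Xbp1, the transcription factor that expands secretory ER, was picked out after its values were seen and was 0.86 higher (adjusted p = 0.0125), with signals of 8132 and 6706 in luminal cells, 4646 and 3537 in myoepithelial cells, 7486.5 and 7762 in duct suprabasal cells, 3938 and 3650.0 in duct basal cells and 9398 and 7267.5 in epidermis, about as high in epidermis and duct suprabasal cells as in luminal cells. Against epidermis, 10 of 23 were higher in luminal cells and 3 lower (56.5% called, against 45.2% of all genes), led by Sdf2l1 at -2.13 and Ppp1r15a at 2.06.

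Other folding factors and the carriers between ER and Golgi also had calls in both directions. The list of 18 folding genes also holds Srpr and Srprb of the signal recognition particle receptor and the translocon-associated Serp1. Of the 18, luminal cells were higher in 2 and lower in 1 against myoepithelial cells, or 16.7%, against 31.1% of all genes. These were Srpr at 0.70, Prkcsh at 0.60 and Fkbp11 at -1.56. Srpr was also higher in luminal cells than in duct suprabasal cells (0.70), duct basal cells (0.98) and epidermis (1.30). Against epidermis, luminal cells were higher in 8 of the 18 and lower in 3 (61.1%, against 45.2%). There the oxidase gene Ero1a was 2.89 higher (adjusted p = 0.000517), with signals of 1908 and 1419 in luminal cells, 949 and 864 in myoepithelial cells, 1218 and 504 in duct suprabasal cells, 422 and 226 in duct basal cells and 254 and 177 in epidermis, and the PDI-related Erp29 was lower (-2.43, adjusted p = 0.000319), with signals of 365 and 460.5 in luminal cells, 442.5 and 616 in myoepithelial cells, 415.5 and 669.5 in duct suprabasal cells, 412 and 739 in duct basal cells and 2232 and 2294 in epidermis. Ero1a was highest on the luminal arrays, and Erp29 was highest on the epidermis arrays. The list of 29 Golgi and COPI genes also holds Sar1b, Preb, Tfg and Mia3, which act at ER exit. Of the 29, 6 were higher and 5 lower in luminal than in myoepithelial cells (37.9%, against 31.1%), with Copb2 of the COPI coat at -1.52, Lman2 at 0.97 and Ergic1 at 0.94. Preb was among the lower ones (-0.85, adjusted p = 0.0109 in limma). Against epidermis 5 were higher and 3 lower (27.6%, against 45.2%), with Ergic1 at 3.65, Mia3 (a collagen cargo receptor) at 2.30 and Copz2 at 2.22. The Ergic1 difference had an adjusted p of 3.23e-06. Ergic1 had signals of 2146 and 1637 in luminal cells, 1061 and 884 in myoepithelial cells, 859 and 806 in duct suprabasal cells, 764 and 889 in duct basal cells and 129 and 148 in epidermis, highest in luminal cells and lowest in epidermis.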

How the data were processed

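Total RNA of 5 sorted populations was measured on 10 arrays; per the labels' protocols it was extracted with Trizol, and biotinylated cRNA was made from 2 ug. The deposited values are intensity, as linear MAS5 signal per the submitters' processing notes. They ran from 0.1 to 72213, and each array had a trimmed mean of 500.0 (2% trimmed per side), so levels are relative to each array. The median signal of an array was 65.1 to 119.2. The number of arrays limits the precision.

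Of 22690 probe sets, 64 controls were left out, 20380 had 1 gene symbol, 691 several and 1555 were not listed in the gene table. Probe sets of several genes were not named, which left out Sec61g, Srp54a, Srp54b, Srp54c, Tmed2 and Tmed10-ps. Entrez identifiers of 20351 probe sets matched RefSeq, which changed 0 symbols. A gene was read from its probe set with the highest mean, and 26 of the 51 members have several. Signals became log2(signal + 12). Genes above an array's 40th percentile on at least 2 arrays were tested, 9320 in all, with limma 3.58.1: 1 fit of all 10 arrays with a mean per population and a variance trend. P-values were adjusted by Benjamini and Hochberg over all genes tested, threshold 0.05. Positive differences mean higher in the population named first. The fit was tested on simulated data.

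Genes named with a value on every array were those fixed by symbol (Hspa5, Hsp90b1, Calr, Canx and Sar1a), in each role the 2 with the widest range of population means among those passing the F test and the 1 with the narrowest where 3 or more were tested, the 6 largest differences each way in luminal cells against myoepithelial, duct suprabasal and epidermal cells, and those called against the majority where 5 or fewer. Companion genes were named up to 4 per list and comparison. Members, roles and lists were chosen with earlier results of these data known, so no result supports their choice. Alternatives were other pseudocounts (1 and 47), quantile normalization, no filter or one at the 60th percentile, the probe set of largest variance, no variance trend, a replicate block, only the arrays compared, and leaving out arrays. Listed genes not tested were Ern1, Rab1, Oxtr, Ivl, Sbsn, Dsg1a, Fbn1, Jchain, Tnfrsf17, Mzb1 and Irf4.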

Additional observations from a re-analysis of the deposited data

Results flagged for a closer look

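A total of 7 genes differed between gland and duct in their inner against outer layer contrast, that is, luminal minus myoepithelial less duct suprabasal minus duct basal, in the same limma fit. They are 14.9% of the 47 tested genes, against 16.0% of all genes tested, so the share is near the background. The difference was -3.31 for Sec24d (gland -3.46, duct -0.16, adjusted p = 0.022), -3.24 for Kdelr3 (gland -2.40, duct 0.84, adjusted p = 0.0348) and -1.89 for Sec23a (gland -1.55, duct 0.34, adjusted p = 0.0162). It was -1.40 for Sec16a (adjusted p = 0.0247), -1.45 for Sec63 (adjusted p = 0.0194), -1.02 for Ssr3 (adjusted p = 0.0417) and 1.02 for Srp9 (adjusted p = 0.0443). Sec24d, Kdelr3, Sec23a, Sec16a and Ssr3 were lower and Srp9 higher in luminal than in myoepithelial cells with no call in the duct, and Sec63 was higher in suprabasal than in basal duct cells with no call in the gland. Without duct basal array 2, limma called 0 of the tested genes (10 at an unadjusted p under 0.05). Leaving out any 1 luminal or myoepithelial array left 1, duct basal array 1 left 3, and either epidermis array left 5. In the gland the gene left was a different one each time: Sec63 without luminal array 1 and Sec24d without luminal array 2. It was Sec23a without myoepithelial array 1 and Sec16a without myoepithelial array 2. With the Sec63 probe set of largest variance, the Sec63 difference turned to 0.34 with an adjusted p of 0.74. The 2 duct suprabasal arrays, which enter each difference, had Sec24d signals of 140 and 574 and Kdelr3 signals of 53.9 and 263.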

How the results depend on the processing

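Of the 97 calls of members in the 10 pairs, 26 held in every alternative run for them and 11 changed sign, each with the probe set of largest variance in place of the brightest, and the cause was not tested. In luminal cells these were Pdia6, at 1.48 against epidermis, 0.72 against myoepithelial and 0.60 against duct basal cells, Sar1a at 0.27 against myoepithelial cells and Tmed9 at 0.18 against duct basal cells. Sec63 turned in myoepithelial against duct basal cells (-0.01) and epidermis (-1.34) and in duct suprabasal cells against epidermis (-0.69), where Sec22b (0.47), Spcs1 (0.78) and Ssr1 (-0.61) turned too. With that choice the median difference of the members was 0.021 for luminal against myoepithelial cells, 0.0484 against duct suprabasal cells, -0.32 against epidermis and -0.26 for duct basal cells against epidermis, and the counts were 4 for myoepithelial against duct basal cells and 1 for duct suprabasal against duct basal cells. The luminal to epidermis median was -0.32 with a pseudocount of 47, -0.34 after quantile normalization, -0.32 without a filter and -0.36 with a filter at the 60th percentile; duct basal cells against epidermis gave 6 calls after quantile normalization, and myoepithelial against duct basal cells 4 without a variance trend. Quantile normalization moved the median of all genes by 0.116 for luminal against myoepithelial, 0.179 for luminal against duct suprabasal and -0.112 for duct suprabasal against duct basal cells. With only the arrays of the populations compared, luminal against duct suprabasal and duct suprabasal against duct basal cells gave 0 limma calls (6 and 4 at an unadjusted p under 0.05), against 36 and 242 over all genes. Same-numbered arrays of different populations had deviations correlated at 0.0257 to 0.357, with the 6 pairs among gland and duct populations over 0.1 and the 4 pairs with epidermis below it. With 2 arrays per population and no pairing in the labels, the numbers were not taken to pair the arrays. The replicate block gave 8 calls for luminal against duct suprabasal and 5 for duct suprabasal against duct basal cells. When both myoepithelial array 1 and duct suprabasal array 2 were left out, the myoepithelial to duct basal median was 0.0535 and duct suprabasal against duct basal gave 9 calls. Over the 10 fits that each left out 1 array, the F test gave 14 to 30 calls. Luminal cells had 4 to 14 calls against myoepithelial cells, 1 to 13 against duct suprabasal cells and 9 to 19 against epidermis, with the last median at -0.33 to -0.29. Myoepithelial against duct basal cells had 1 to 11 calls and a median of -0.0294 to 0.0913. Duct suprabasal against duct basal cells had 1 to 6 calls, and duct basal cells against epidermis 2 to 12. The alternative without Ssrp1 was not run, since the gene table used here lists no probe set for it.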
